A study of Mus musculus with 3 samples.

Results

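RNA of 10 genes of glycolysis and glucose uptake was measured in single cells of the mouse kidney cortex: the glucose transporter gene Slc2a1 and the enzyme genes Hk1, Hk2, Pfkp, Aldoa, Tpi1, Pgk1, Pgam1, Pkm and Ldha. The 10 were listed by name out of 22535 genes in the count tables, and all 10 were present. The 3 groups compared had 1 library each, and all came from adult WT1CreERT2; Rosa26-tdT fl/+ mice. In these mice tamoxifen switches on the red protein tdTomato (tdT) in cells that express Wt1, and their descendants keep it, so that the label follows the Wt1 locus and not a cell type. Sham came from mice after sham surgery and mixed tdT+ with tdT- cells. The other libraries came from mice with severe ischemia-reperfusion injury (IRI) of both kidneys, taken at 24 h. IRI24h-TDN was again a mixture of tdT+ and tdT- cells, whereas for IRI24h-TD only the tdT+ cells were loaded. Where 3 values of a class stand together below, they are in the order Sham, IRI24h-TDN, IRI24h-TD. Kidneys of several mice were pooled in each library, so the spread between animals was not measured. With 1 library per group there is no replicate check and no test was run. A difference between Sham and IRI24h-TDN cannot be told apart from a difference between 2 libraries.

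Glycolysis splits glucose into pyruvate in the cytosol and yields ATP without oxygen, and lactate dehydrogenase then turns pyruvate into lactate. Proximal tubule epithelial cells (PTECs) are known to make most of their ATP by burning fatty acids in mitochondria and to make glucose rather than use it, whereas the distal nephron segments use glucose. Several glycolysis genes are textbook targets of the hypoxia-inducible factors, which are stabilised in low oxygen. Slc2a1 (chr4:119108711-119137983, plus strand, GRCm38 with the GENCODE M21 annotation here and in what follows) encodes GLUT1, the transporter for basal glucose uptake. Hk1 (chr10:62268855-62379908, minus strand) and Hk2 (chr6:82725025-82774454, minus strand) encode hexokinases, which trap glucose in the cell. Pfkp (chr13:6579768-6648777, minus strand) encodes the platelet type of phosphofructokinase, the committed step. Aldoa (chr7:126795234-126800751, minus strand) encodes the aldolase that cleaves the sugar. Tpi1 (chr6:124810586-124814296, minus strand), Pgk1 (chrX:106187100-106203699, plus strand) and Pgam1 (chr19:41911923-41918660, plus strand) encode the isomerase, kinase and mutase of the lower part. Pkm (chr9:59656368-59679375, plus strand) makes pyruvate, and Ldha (chr7:46841475-46855627, plus strand) makes the muscle type subunit of lactate dehydrogenase. The annotation gives the symbol Aldoa to a neighbouring gene too (chr7:126800790-126809108, minus strand), and the count tables have a single row of that name.

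The promoters were searched for the letters ACGTG and GCGTG, the core words of the hypoxia response element, on either strand and in the 250 bases before each RefSeq start (GRCm38.p6). Either word was present in 38.6% of 32851 promoters of the genome, ACGTG in 16.6% and GCGTG in 28.2%. The 10 genes had 15 promoters in that table, 11 of them with a word, and 9 of the 10 genes had at least 1 such promoter. Promoters 2 and 3 of Aldoa overlap and share the same match, which is counted for both, and promoter 1 of Aldoa had none. The Aldoa stretch below is from promoters 2 and 3. The 38.6% is a share of promoters, and the share of all genes with at least 1 such promoter is not given here. Tpi1 had none. Stretches of 4 genes are shown because Ldha and Aldoa were higher after IRI in most cell classes, Hk2 had the largest folds, and Pgk1 was lower in most. Capitals mark the words as read on the plus or the minus strand of the gene, and the stretches lie at chr7:46845746-46845795 for Ldha, chr7:126799341-126799390 for Aldoa, chr6:82774641-82774690 for Hk2 and chrX:106186940-106186989 for Pgk1.
Ldha: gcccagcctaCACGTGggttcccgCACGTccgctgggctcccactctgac
Aldoa: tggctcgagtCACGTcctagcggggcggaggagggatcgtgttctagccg
Hk2: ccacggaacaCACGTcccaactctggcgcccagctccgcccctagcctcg
Pgk1: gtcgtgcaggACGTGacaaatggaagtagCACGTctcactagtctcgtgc
Of the 4 stretches, those of Ldha and Pgk1 hold a word more than once, and CACGTG in Ldha reads as the word on both strands. Promoters of Hk1, Hk2, Pfkp, Pgam1 and Slc2a1 also had more than 1 match. Any relation of the matches to the levels below was not tested. A match is a run of letters and was not tested as a binding site.

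After barcodes with fewer than 200 genes or more than 50% mitochondrial UMIs were left out, 8047, 9024 and 9689 cells remained, with 65065819, 88290370 and 92889327 unique molecular identifiers (UMIs, 1 per captured RNA molecule). Clusters were named from marker genes. A class of 294, 459 and 15 cells matched the mesangial marker list, which also holds Myh11, Rgs5 and Ren1, but its 3 clusters were led by smooth muscle genes such as Acta2 and Myh11 (clusters 15 and 21) and by the renin gene Ren1 (cluster 24), so it is called Rgs5/Myh11 cells after its leading genes. Connecting tubule-like cells were a single cluster led by Aqp2, with the collecting duct principal cell genes Aqp3 and Fxyd4 and the connecting tubule genes Calb1 and S100g among its leading genes, and principal and connecting tubule cells were not separated in it. Podocyte-like cells numbered 4382, 5197 and 8800, the last being 90.8% of the tdT+ library, cells like parietal epithelial cells (PECs) 757, 231 and 349, and PTEC-like cells 1083, 153 and 119. Values are UMIs of a gene scaled to a total of 1e6 (counts per 1e6, CPM) of the summed cells of a class, and intervals are exact 95% Poisson or binomial intervals that cover counting error only. A gene is called past 2-fold when it has at least 50 CPM and 10 UMIs in the higher group. Each pair of libraries shared 102 to 114 barcodes. RNA of proximal cells was found outside them, most in Sham. The 16 PTEC markers summed to 325 CPM in podocyte-like cells of Sham and to 7.53 and 4.34 CPM in those of IRI24h-TDN and IRI24h-TD. The 10 podocyte markers summed to 1467 to 4258 CPM in 7 of the other 8 classes compared in Sham and to 13768 CPM in endothelial-like cells, against 42665 CPM in podocyte-like cells. PTEC-like cells of IRI24h-TD were shallow, with a median of 2257 UMIs against 13444 in IRI24h-TDN and 6576 in Sham.

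In Sham, RNA of Slc2a1 and Hk1 was highest in the distal segments, and uptake itself was not measured. Slc2a1 was at 226 CPM (205.5 to 248.7) in connecting tubule-like cells, 196 CPM in intercalated-like cells and 66.7 CPM in ascending limb-like cells, with the first and second overlapping in their intervals. It was at 36.0 CPM in PEC-like, 19.4 CPM in podocyte-like and 11.4 CPM (9.25 to 13.9) in PTEC-like cells, which had the lowest level of the 9 classes. PTEC-like cells of Sham had 1186 UMIs of Slc2a2, the gene of the proximal transporter GLUT2, beside 97 of Slc2a1, and ascending limb-like cells 0 of Slc2a2 beside 62. Hk1 followed nearly the same order, with 277, 241 and 200 CPM in connecting tubule-like, intercalated-like and ascending limb-like cells. Rgs5/Myh11, PEC-like and endothelial-like cells had 75.9, 73.4 and 68.4 CPM of Hk1 and did not differ beyond their intervals. Podocyte-like cells had 31.8 CPM, monocytic-like cells 17.8 CPM and PTEC-like cells 4.94 CPM (3.56 to 6.68) of it. The inducible hexokinase Hk2 had another order. It was at 83.2 CPM (69.6 to 98.7) in monocytic-like cells, at 14.9 and 14.3 CPM in Rgs5/Myh11 and PEC-like cells, and at or under 3.83 CPM in each of the other 6 classes. In podocyte-like cells 0.388% had an Hk2 UMI, 0.117% after thinning each cell to 2400 UMIs, and in monocytic-like cells 20.3% had one, 15.2% after thinning.

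**Figure D1:**
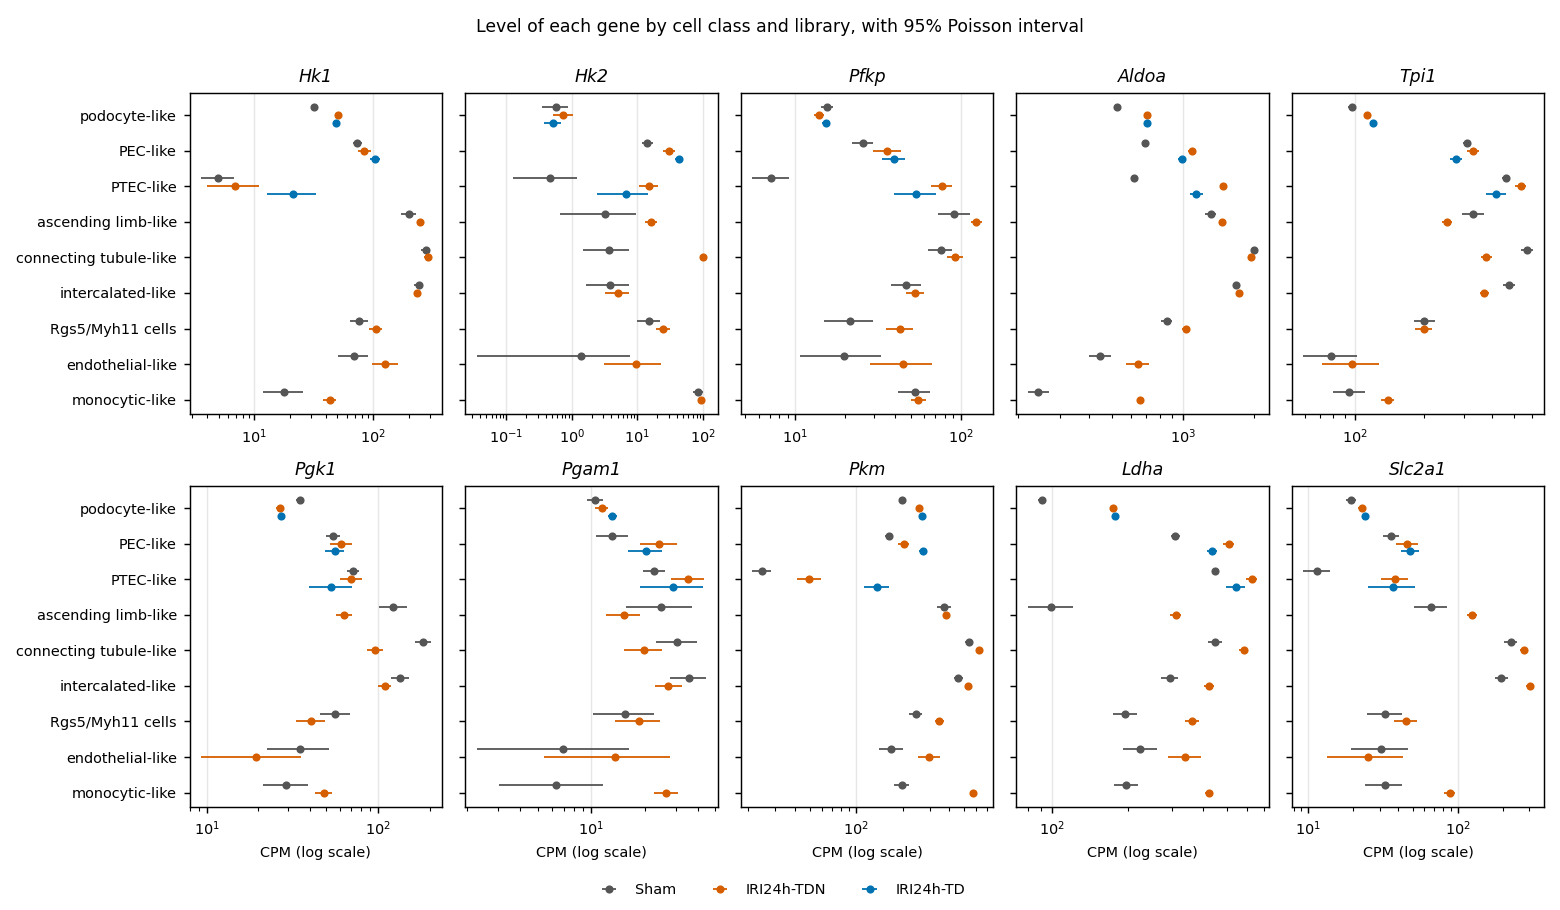
Level of each gene in CPM (log axis) by cell class, with 1 point per library and exact 95% Poisson intervals as bars. Only class and library pairs with at least 50 cells are drawn. The connecting tubule-like class stands furthest right for 7 of the 10 genes in Sham, and PTEC-like cells furthest left for Hk1, Hk2, Pfkp, Pkm and Slc2a1.

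The genes of the middle of the pathway were also highest in the distal segments of Sham. Pfkp reached 91.4 CPM in ascending limb-like and 75.4 CPM in connecting tubule-like cells, which overlapped, and 7.18 CPM in PTEC-like cells. Aldoa ran from 1999.6 CPM in connecting tubule-like cells through 1677.7 CPM in intercalated-like cells to 243.9 CPM in monocytic-like cells, and every pair of neighbours in that order of 9 classes lay apart in its intervals. PTEC-like cells were in the upper group for Tpi1 and Ldha. Tpi1 was at 570 CPM in connecting tubule-like cells, 477 CPM in intercalated-like and 459 CPM in PTEC-like cells, the last 2 overlapping, and at 96.4 CPM in podocyte-like cells. Ldha was at 447.4 CPM in connecting tubule-like and 447.3 CPM in PTEC-like cells, at 311 CPM in PEC-like cells, and lowest in ascending limb-like and podocyte-like cells with 98.9 and 91.1 CPM. Pgk1 was at 183 CPM in connecting tubule-like, 71.9 CPM in PTEC-like and 35.0 CPM in podocyte-like cells. Pgam1 stayed between 6.35 and 35.4 CPM, and no pair of neighbours in its order lay apart. Pkm was at 538 CPM in connecting tubule-like, 199 CPM in podocyte-like, 162 CPM in PEC-like and 24.5 CPM (21.3 to 28.0) in PTEC-like cells.

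Set against podocyte-like cells of Sham, PTEC-like cells were past 2-fold higher for 3 genes (Tpi1, Pgk1 and Ldha) and lower for 1 (Pkm), with 5 of the 10 past the limits on level, where 23.2% of 4649 genes were past 2-fold higher and 33.4% lower. Ldha was 4.91-fold higher (4.69 to 5.15) in PTEC-like than in podocyte-like cells of Sham, and the ratio was 3.60 in IRI24h-TDN and 3.05 in IRI24h-TD. For Tpi1 the ratios were 4.76, 4.72 and 3.503. Against PTEC-like cells of Sham, connecting tubule-like cells were past 2-fold higher for 6 genes (Hk1, Pfkp, Aldoa, Pgk1, Pkm and Slc2a1) and lower for 0 of the 8 past the limits, beside 22.4% of 4372 genes higher and 19.4% lower. The ratio was 56.1 (40.9 to 78.75) for Hk1, 21.99 for Pkm and 19.8 for Slc2a1. PEC-like cells were past 2-fold higher than podocyte-like cells of Sham for Hk1, Tpi1 and Ldha and lower for 0, with 6 of the 10 past the limits, where 20.1% of 4739 genes were higher and 12.9% lower. Hk2 was below the limit on level there, at 14.3 CPM in PEC-like against 0.571 CPM in podocyte-like cells, and that ratio of 24.98 (15.5 to 42.0) was 40.3 in IRI24h-TDN and 84.2 in IRI24h-TD. In Sham the 3 PEC-like clusters differed in Hk2, with 35.6 CPM in the cluster led by Cp and Tnc (cluster 16), 8.46 CPM in cluster 9, which has the proximal tubule gene Cldn2 among its leading genes, and 2.755 CPM in cluster 14.

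Between Sham and IRI24h-TDN, 9 classes had at least 50 cells in both libraries. All 9 come from the same 2 libraries, so they are not independent repeats, and the intervals cover counting error only. The share of all genes that were higher or lower in as many classes is not given here, so these counts of classes have no background. Ldha was higher in IRI24h-TDN in all 9, with every interval above 1 and ratios from 1.30 in connecting tubule-like to 3.15 in ascending limb-like cells (median 1.63). Pkm was higher in 9 of 9 classes, with 8 intervals above 1 and a median ratio of 1.28. Hk2 was higher in 9 of 9 as well, with 5 intervals above 1 and ratios from 1.14 in monocytic-like to 31.8 in PTEC-like cells. It passed the limits on level in only 2 of the 9, connecting tubule-like and monocytic-like cells, and its Sham values in PTEC-like, ascending limb-like and endothelial-like cells rested on 4, 3 and 1 UMIs, the last against 5 in IRI24h-TDN. Aldoa, Hk1, Pfkp and Slc2a1 were each higher in 8 of 9 classes, with median ratios of 1.34, 1.38, 1.36 and 1.37. Pgk1 was the exception among the 10, lower in 7 of 9 classes with a median ratio of 0.771 and 5 intervals below 1. Pgk1 has 4 near-identical genes, none of them in the counts. Of these, Gm5537 and Pgk1-rs7 are 100% identical over 1252 and 1255 bases. Whether reads were divided with them was not tested, so the Pgk1 values are uncertain. Tpi1 was higher in 5 and lower in 4 classes, and Pgam1 higher in 6 and lower in 3. With another scaling the direction turned for 8 of these 90 gene and class pairs, of which the largest under CPM was 0.15 on the log2 scale. With mitochondrial and ribosomal protein genes left out of the total, Pkm was higher in 8 of 9 classes and Aldoa and Hk1 in 7 of 9, and with edgeR's TMM factors Pfkp was higher in 7 of 9. Ldha and Hk2 kept 9 of 9 under every scaling.

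**Figure D2:**
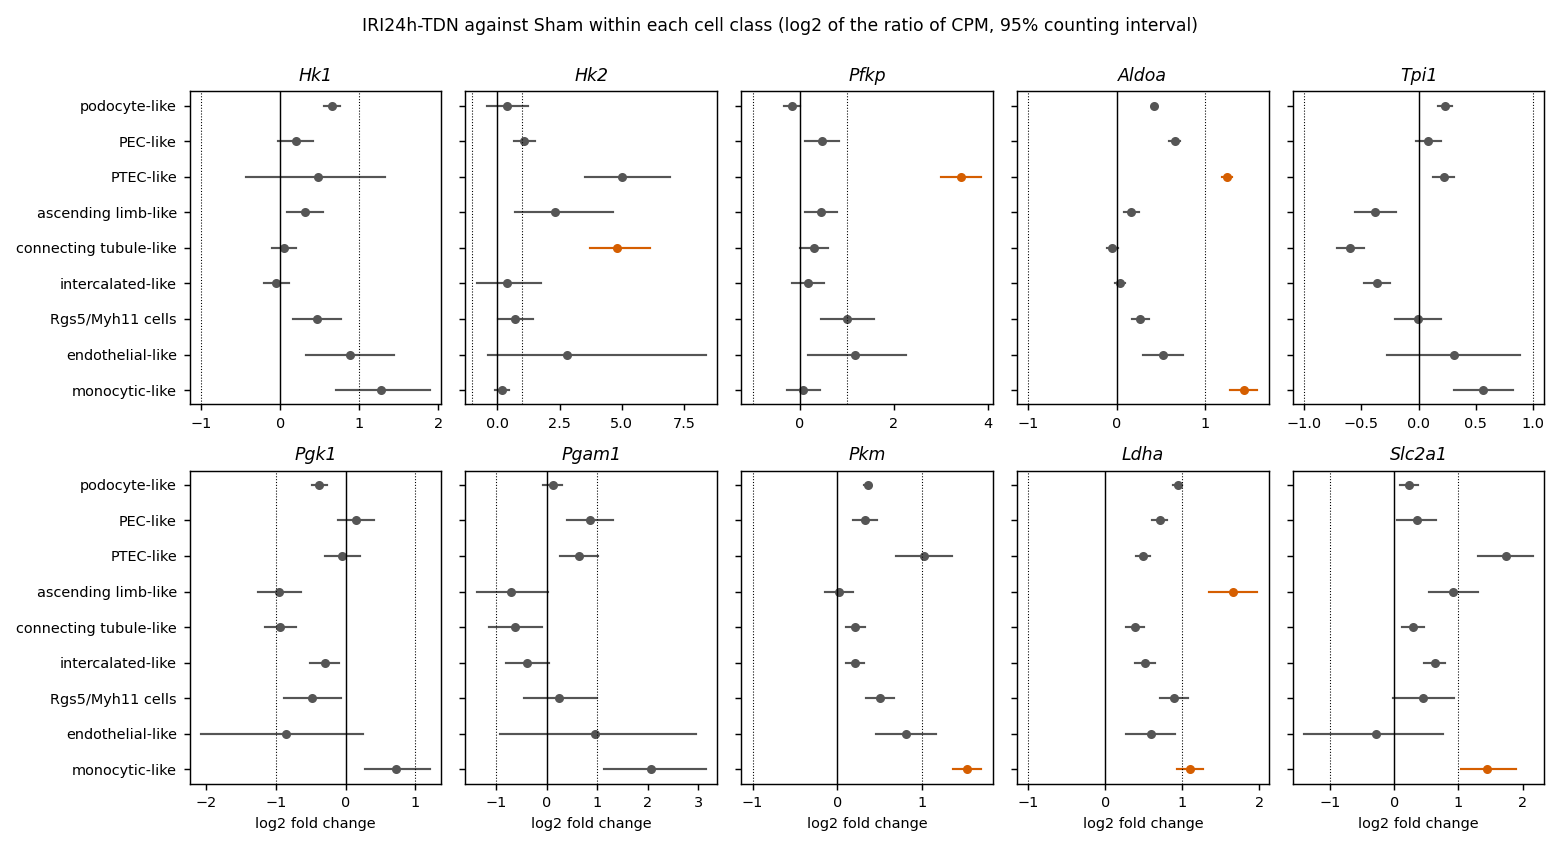
Log2 ratio of CPM in IRI24h-TDN over Sham for each gene (panels) and cell class (rows), with exact 95% counting intervals as bars. The solid line is no difference, dotted lines are 2-fold, and orange marks the 8 pairs past 2-fold with enough counts. Ldha lies right of the solid line in all 9 classes and Pgk1 left of it in 7.

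Podocyte-like cells, which carry tdT, allow the 2 libraries of injured kidneys to be set side by side. Ldha was at 91.1 CPM (88.0 to 94.2) in Sham, 175 CPM in IRI24h-TDN and 178 CPM in IRI24h-TD. Hk1 was at 31.8, 50.045 and 48.7 CPM, and Pkm at 199, 255 and 268 CPM. Aldoa was at 527, 706 and 702 CPM. For these 4 genes both libraries of injured kidneys lay above Sham and within 1.05-fold of each other. The libraries differed in the clusters that made up this class. Clusters 0 and 2 held 40.0% and 31.7% of its cells in Sham against 28.8% and 12.4% in IRI24h-TDN, and clusters 1, 3 and 4 held 9.86%, 9.01% and 4.998% against 22.01%, 19.95% and 14.97%. Within each of these 5 clusters Ldha was at 65.0 to 94.8 CPM in Sham, 159 to 181 CPM in IRI24h-TDN and 167 to 182 CPM in IRI24h-TD. Hk1 was at 27.5 to 37.6 CPM in Sham and 44.5 to 57.3 CPM in both libraries of injured kidneys. Clusters of a library are not replicates, and the share of all genes with ranges as far apart is not given here. The smaller clusters 6 and 30 of this class are not in these ranges. Pgk1 was at 35.0 CPM in Sham and at 26.9 and 27.0 CPM after IRI, below Sham in both. The ratio of IRI24h-TDN to Sham was 1.92 (1.84 to 1.996) for Ldha and 1.57 (1.47 to 1.69) for Hk1. No gene of the 10 was past 2-fold, with 5 past the limits on level, and 3.18% of 3933 genes were higher and 3.76% lower in this comparison. The median of the 10 log2 ratios was 0.30, and that of the 14474 genes with at least 10 UMIs was -0.07. Between IRI24h-TD and IRI24h-TDN 0 of the 10 genes were past 2-fold in either direction, beside 0.0% of 3713 genes higher and 0.0269% lower.

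In PTEC-like cells, low in Sham for 5 of the genes, Pfkp and Aldoa were the genes past 2-fold. Pfkp was at 7.18 CPM (5.49 to 9.22) in Sham, 76.9 CPM (66.4 to 88.7) in IRI24h-TDN and 53.4 CPM (39.4 to 70.9) in IRI24h-TD. Aldoa was at 623, 1479.5 and 1137.8 CPM. Slc2a1 was at 11.4, 38.0 and 36.7 CPM, and both libraries of injured kidneys were above Sham for all 3 genes, although Slc2a1 was below the limit of 50 CPM and was not called. In IRI24h-TD this class held more podocyte than PTEC marker RNA, 9297 against 6132 CPM, so its name is uncertain in that library. Slc2a2 was at 140, 219 and 187 CPM. Hk2 rested on 4, 37 and 6 UMIs, with 7 of the 37 in 1 cell and 78.4% of them in the top 5% of cells. Hk1 was at 4.94 and 6.88 CPM in Sham and IRI24h-TDN. Pkm was at 24.5 and 49.8 CPM, a ratio of 2.04 at a level just under the limit of 50 CPM. The ratio of IRI24h-TDN to Sham was 10.7 (7.99 to 14.55) for Pfkp, 2.37 (2.28 to 2.48) for Aldoa, 1.40 for Ldha and 0.969 for Pgk1. The last 748 bases of Pfkp overlap Pitrm1 on the other strand, and reads of that stretch cannot be told apart unless counting used the strand, which the sources used here do not give, so the Pfkp values are uncertain. Pitrm1 itself was at 9.41, 15.8 and 13.4 CPM in PTEC-like cells. Pfkp and Aldoa were past 2-fold higher and 0 genes lower, with 5 of the 10 past the limits, where 17.3% of 4142 genes were higher and 12.1% lower. The median log2 ratio was 0.83 over the 10 genes and 0.12 over all genes with at least 10 UMIs. Within the deeper of the main PTEC-like clusters (cluster 11), Pfkp was at 5.62, 91.4 and 53.6 CPM. The PTEC markers summed to 59147, 9248 and 6132 CPM, and injury markers such as Havcr1 and Krt20 to 69.6, 3102 and 1787 CPM. Their part in these differences was not tested.

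In PTEC-like cells of IRI24h-TD, Pkm was at 136 CPM (113 to 162) against 49.8 CPM in IRI24h-TDN, and Hk1 at 21.2 against 6.88 CPM. Pkm was the 1 gene past 2-fold higher, 0 genes were lower and 6 of the 10 passed the limits, beside 8.36% of 4212 genes higher and 2.02% lower. In that library 91 of the 119 PTEC-like cells were in cluster 8, which is shallow, and there Pkm was at 289 and Hk1 at 44.8 CPM. In cluster 11 Pkm was at 35.1 CPM in IRI24h-TD and 34.5 CPM in IRI24h-TDN. Podocyte markers summed to 9297 CPM in PTEC-like cells of IRI24h-TD, 1600.5 CPM in those of IRI24h-TDN and 2475 CPM in those of Sham, against 38430 CPM in podocyte-like cells of IRI24h-TD. Of the PTEC-like cells 3.92% in IRI24h-TDN and 13.4% in IRI24h-TD were among the top 6% of doublet scores. With those cells removed, the log2 ratio of Pkm between these libraries was 0.53 in place of 1.45 and 0 genes were past 2-fold higher, and between IRI24h-TDN and Sham it was 2.09 in place of 1.025.

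PEC-like cells, the other class that carries tdT, had higher Ldha, Aldoa and Hk2 in both libraries of injured kidneys. Ldha was at 311 CPM in Sham, 507 CPM in IRI24h-TDN and 436 CPM in IRI24h-TD. Aldoa was at 691, 1086.8 and 986 CPM, and Pkm at 162, 204 and 270 CPM. Hk2 was at 14.3 CPM (11.7 to 17.3) in Sham, 30.1 CPM (24.2 to 37.0) in IRI24h-TDN and 43.3 CPM (37.1 to 50.3) in IRI24h-TD, so that both libraries of injured kidneys were above Sham. These UMIs came from 36, 45 and 64 cells, a single cell held 12.4%, 14.4% and 12.7% of them, and the intervals do not cover that spread between cells. The 10 genes were all higher in IRI24h-TDN than in Sham, although the intervals of Hk1, Tpi1 and Pgk1 included 1. The median of the 10 log2 ratios was 0.42, and that of the 13265 genes with at least 10 UMIs was -0.08. Of the 10 genes 0 were past 2-fold with 6 past the limits, and 4.68% of 4660 genes were higher and 6.61% lower. Without cluster 9 the log2 ratios were -0.33 for Slc2a1 and -0.11 for Pgk1, and those of Aldoa, Pkm and Hk1 were 0.48, 0.53 and 0.53 in place of 0.65, 0.33 and 0.20. Between IRI24h-TD and IRI24h-TDN 0 of the 10 genes were past 2-fold, beside 2.72% of 4493 genes higher and 0.579% lower. In cluster 16 Hk2 was at 35.6, 61.4 and 126 CPM in Sham, IRI24h-TDN and IRI24h-TD.

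In the distal segments 1 gene was past 2-fold in ascending limb-like cells, Ldha, and 1 in connecting tubule-like cells, Hk2. In ascending limb-like cells, Ldha was at 98.9 CPM (79.7 to 121) in Sham and 311 CPM (297 to 326) in IRI24h-TDN, the 1 gene of 8 past the limits that was past 2-fold higher. None of the 10 was past 2-fold lower, and 7.46% of 3809 genes were higher and 8.66% lower. Slc2a1 was at 66.7 and 126 CPM there, Pkm at 373 and 379 CPM, and Pgk1 at 123 and 63.2 CPM. In connecting tubule-like cells, Hk2 was at 3.67 CPM (1.47 to 7.56) in Sham and 101.4 CPM (91.1 to 112.5) in IRI24h-TDN, a ratio of 27.6 (13.3 to 69.3). Of the 234 cells of Sham 2.56% had an Hk2 UMI, 0.905% after thinning, and of the 338 cells of IRI24h-TDN 22.5% had one, 11.3% after thinning. A single cell held 57 of the 354 UMIs, and the top 5% of cells held 61.9% of them. The 27 cells of this class in IRI24h-TD, too few for a comparison, had 18 UMIs of Hk2 or 74.0 CPM. Hk2 was the 1 gene past 2-fold higher and 0 were lower, with 9 past the limits, beside 7.21% of 4036 genes higher and 6.02% lower. Pgk1 was lower there, at 183 and 95.6 CPM, and so was Tpi1, at 570 and 377 CPM.

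Intercalated-like cells had the smallest median log2 ratio of the 9 classes over the 10 genes, 0.11. Slc2a1 was at 196 CPM in Sham and 303 CPM in IRI24h-TDN, Ldha at 295 and 422 CPM, and Hk1 at 241 and 234 CPM. These class values compare different mixes of cells. Cluster 18, led by Slc26a4, a gene of type B intercalated cells, held 33.3% of the class in Sham and 63.4% in IRI24h-TDN, and cluster 20, led by the type A genes Aqp6 and Slc4a1, held the rest. Slc2a1 was at 276.5 and 275.5 CPM in cluster 18 and at 151 and 367 CPM in cluster 20. Ldha was at 336 and 400.1 CPM in cluster 18 and at 272 and 473 CPM in cluster 20, and Hk1 at 213 and 223 CPM and at 257 and 258 CPM. Over the whole intercalated-like class 0 of the 10 genes were past 2-fold in either direction with 8 past the limits, and 6.7% of 3983 genes were higher and 4.19% lower. Single clusters were not called in this way. Injury markers summed to 1758 CPM in connecting tubule-like cells of Sham and 21423 CPM in those of IRI24h-TDN, and to 1584 and 16105 CPM in ascending limb-like cells. Their part in the values of Hk2 and Ldha was not tested.

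Monocytic-like cells had the most genes past 2-fold. Aldoa was at 243.9 CPM (220 to 269.5) in Sham and 659 CPM in IRI24h-TDN, and Pkm at 198 and 574 CPM. Ldha was at 197.5 and 422 CPM, and Slc2a1 at 32.4 and 88.7 CPM. Hk2 was high in both libraries, at 83.2 and 94.5 CPM, and Pfkp at 52.7 and 55.5 CPM. The ratio was 2.90 (2.58 to 3.26) for Pkm, 2.70 for Aldoa, 2.74 for Slc2a1 and 2.14 for Ldha, and these 4 were past 2-fold higher and 0 lower, with 7 past the limits, where 11.8% of 3925 genes were higher and 6.34% lower. The median log2 ratio was 1.18 over the 10 genes and 0.20 over all genes with at least 10 UMIs. In the cluster that held 248 of the 315 cells of Sham and 663 of the 943 of IRI24h-TDN (cluster 5), Aldoa was at 207 and 561 CPM and Pkm at 158 and 490 CPM. This class includes cluster 28, with 15 cells of Sham and 51 of IRI24h-TDN, 93.9% of which had top doublet scores.

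In Rgs5/Myh11 and endothelial-like cells 0 genes were past 2-fold in either direction. In Rgs5/Myh11 cells Ldha was at 195 CPM in Sham and 361 CPM in IRI24h-TDN, and Pkm at 243 and 345 CPM. With 6 of the 10 past the limits there, 2.5% of 4047 genes were higher and 3.73% lower. In endothelial-like cells, which had 203 and 104 cells, Ldha was at 225 and 339 CPM and Pkm at 169 and 296 CPM, with 5 past the limits, beside 6.03% of 4694 genes higher and 8.41% lower. Podocyte markers summed to 13768 CPM in endothelial-like cells of Sham and 6887 CPM in those of IRI24h-TDN. The endothelial markers summed to 13284 and 13302 CPM there, in Sham less than the podocyte markers. The part of podocyte RNA in these values was not tested. The distal convoluted tubule-like class had 49 cells in Sham, too few for a comparison, and in 443 cells of IRI24h-TDN Pkm was at 767 CPM and Aldoa at 1806.3 CPM.

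Several steps have isozymes that are used in different cells, and the share of UMIs of a pair that 1 gene takes does not depend on the total used for scaling. These shares are compared between classes and libraries and are not the relative abundance of the pair, since they were not set per length. Pfkp took 34.5% (27.5 to 42.0) of the UMIs of Pfkp and the muscle type gene Pfkm in PTEC-like cells of Sham, and 90.9% (86.2 to 94.4) and 81.4% after IRI, with the doubt from the overlap of Pfkp with Pitrm1. The 81.4% is from IRI24h-TD, where PTEC-like cells held more podocyte than PTEC marker RNA. In podocyte-like cells the share of Pfkp in this pair was 42.8%, 43.5% and 45.3%.

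Ldha shared its step with Ldhb, the heart type subunit. Ldha took 83.3%, 94.3% and 97.2% of the pair in podocyte-like cells. In ascending limb-like cells it took 6.55% (5.31 to 7.97) in Sham and 27.0% (26.0 to 28.1) in IRI24h-TDN. The share was higher in IRI24h-TDN in 8 of the 9 classes, although the intervals overlapped in endothelial-like cells, at 78.5% (72.3 to 83.95) and 87.9% (82.6 to 92.1). Monocytic-like cells had 92.6% and 91.9%, also overlapping. Hk1 took 98.7% of the hexokinase pair Hk1 and Hk2 in connecting tubule-like cells of Sham and 73.8% (71.4 to 76.2) in IRI24h-TDN, and 17.6% and 31.3% in monocytic-like cells. Slc2a1 took 7.56% of the pair with Slc2a2 in PTEC-like cells of Sham, and 14.8% and 16.4% after IRI, the last 2 overlapping. The 16.4% is from IRI24h-TD, where PTEC-like cells held more podocyte than PTEC marker RNA.

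**Figure D3:**
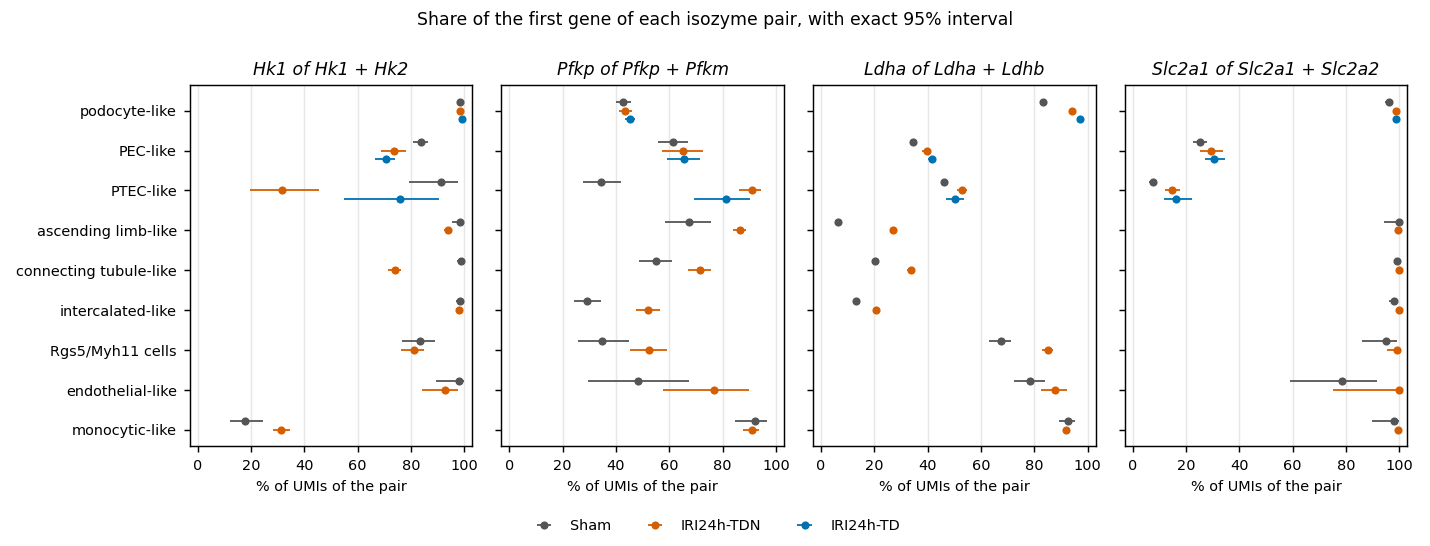
Share of the UMIs of an isozyme pair taken by the first gene, in percent, by cell class and library, with exact 95% binomial intervals as bars. PTEC-like cells move right after IRI for Pfkp, and the Hk1 share of connecting tubule-like cells goes from 98.7% to 73.8%.

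Genes with near-identical copies were looked for because reads can be lost to or gained from a copy. A gene was set apart when its log2 ratio was at least 1 in size and of 1 sign in every class where it had at least 10 UMIs, with at least 3 such classes. Of the 10 genes 0 met this. Over all 13087 genes measured in at least 3 classes, 98 were higher and 222 lower in IRI24h-TDN in every class. Ribosomal protein genes made up 31 of the 222. Gapdh, the next enzyme after Tpi1, was among the 222. It was at 910 CPM in PTEC-like, 221 CPM in podocyte-like and 1153 CPM in connecting tubule-like cells of Sham, and at 14.6, 3.23 and 6.59 CPM in those of IRI24h-TDN. Its log2 ratio ran from -7.45 to -5.19 over 9 classes. In podocyte-like cells of IRI24h-TD it was at 2.73 CPM. GENCODE M21 holds 77 other genes at 95% identity or more with Gapdh over at least 300 bases, and 2 of them, Gm10358 and Gm3839, were in the counts at 0.147 and 0.714 CPM over all cells of IRI24h-TDN. Gapdh met the rule for setting apart and is not read as a glycolysis value, although it remains in the counts of lower genes of the wider list below. The cause of its low values in the libraries of injured kidneys was not tested. Of the 10 genes, Ldha has 3 such near-identical genes, Pgk1 4, and Tpi1, Pgam1 and Pkm 1 each, none of them named in the counts, and whether reads were divided with them was not tested. Pfkp has 1 in the counts, the overlapping Pitrm1.

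**Figure D4:**
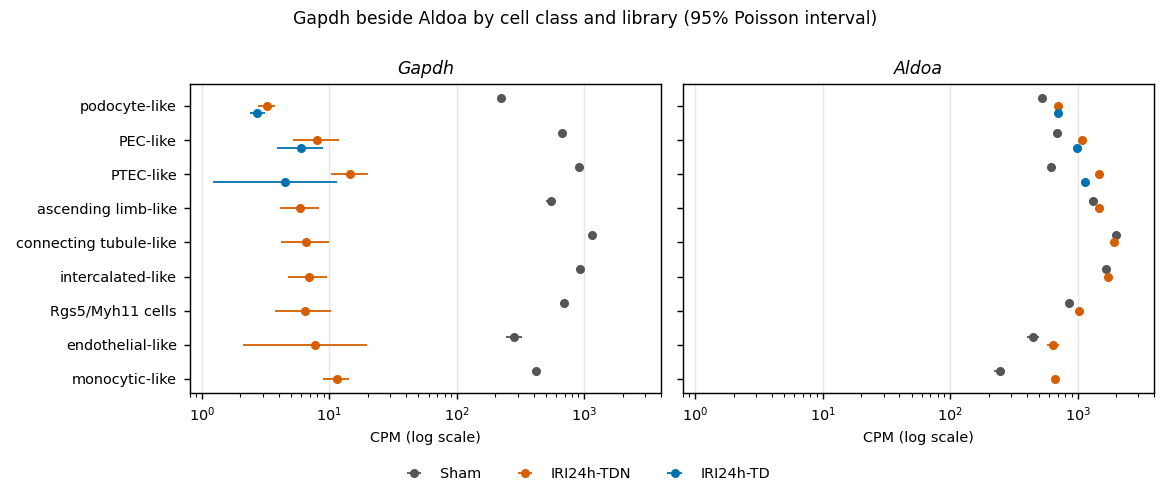
Gapdh and Aldoa in CPM (log axis) by cell class and library, with exact 95% Poisson intervals as bars and only pairs with at least 50 cells drawn. Gapdh lies between 221 and 1153 CPM in Sham and under 15 CPM in every class of both libraries of injured kidneys, while Aldoa differs by less than 3-fold in every class.

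The other genes of glucose handling were taken from a list of 45. Gapdh is on that list and is counted among the lower genes in every class compared, including those where it is not named. In PTEC-like cells 17 passed the limits on level, and 1 was past 2-fold higher in IRI24h-TDN and 8 lower, beside 17.3% of all genes tested there higher and 12.1% lower. The higher one was Slc16a1, a lactate and pyruvate carrier gene, at 58.8 CPM in Sham and 126 CPM in IRI24h-TDN. The lower ones included the fructose transporter gene Slc2a5 at 98.3 and 23.5 CPM, and Txnip, an inhibitor of glucose uptake, at 99.98 and 44.1 CPM, besides Gapdh. Slc2a5 was lower by at least 2-fold in all 3 classes where it was measured and so met the rule for setting apart. Unlike Gapdh it has 0 near-identical genes, and the cause was not tested. It remains among the 8 lower genes. In monocytic-like cells 10 passed, and Eno1 and Slc16a3, which encodes the lactate exporter, were past 2-fold higher, at 110 and 299 CPM for Eno1 and 22.2 and 53.7 CPM for Slc16a3, while 2 were lower, Gapdh among them, beside 11.8% of all genes higher and 6.34% lower. Eno1 and Txnip each have 1 near-identical gene in the counts, so their own values are uncertain. In intercalated-like cells Pfkfb3, whose product makes the activator of phosphofructokinase, was at 73.3 and 246 CPM, and Pdk4, which restrains pyruvate oxidation, at 33.5 and 127 CPM, the 2 genes past 2-fold higher of 16 past the limits, with 3 lower, beside 6.7% of all genes higher and 4.19% lower. With the mix of clusters differing as given above, Pfkfb3 was at 51.6 and 281 CPM in cluster 18 and at 85.5 and 167 CPM in cluster 20, and Pdk4 at 39.7 and 139 CPM and at 30.015 and 98.002 CPM. In podocyte-like cells 0 of 8 were past 2-fold higher and 2 lower, Gapdh and Pdk2, beside 3.18% and 3.76% of all genes. In ascending limb-like cells 0 of 16 were higher and 5 lower, beside 7.46% and 8.66%, and in connecting tubule-like cells 1 of 18 was higher, the D-lactate dehydrogenase gene Ldhd, and 5 lower, beside 7.21% and 6.02%. In PEC-like, Rgs5/Myh11 and endothelial-like cells 0 were higher and 2 lower, of 13, 11 and 10 past the limits, beside 4.68% and 6.61%, 2.5% and 3.73%, and 6.03% and 8.41% of all genes. Of the 15 genes of a list known to be induced in low oxygen outside glycolysis, 5 to 9 passed the limits in each class, against the same shares of all genes. There 1 of 8 was past 2-fold higher in PTEC-like (Adm), 1 of 7 in ascending limb-like (Ndrg1), 1 of 8 in endothelial-like (Kdm3a) and 2 of 8 in intercalated-like cells (Ndrg1 and Adm), and 0 in the other 5 classes. Past 2-fold lower were 1 of them in intercalated-like (Higd1a) and 2 in endothelial-like cells (Egln3 and Adm).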

How the data were processed

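Per the labels, cells of dissociated kidney were captured with BD Rhapsody. The authors deposited unnormalized UMI counts, whole numbers for every gene and barcode, in 1 table per library, and the submitters' processing notes name mm10, CASAVA 1.8, UMI-tools and Seurat. The tables total 69980443, 92355554 and 93470709 UMIs.

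Barcodes with at least 200 genes and at most 50% mitochondrial UMIs were kept (26760 of 30008). Clustering used 2000 variable genes, from which glycolysis, mitochondrial, ribosomal protein and haemoglobin genes were left out, 30 principal components, a Harmony correction for library coded in numpy 2.4.6, and leidenalg 0.10.2 at resolution 1. The 33 clusters were named from marker lists: at least 3 markers had to be detected in 25% of cells and 1 had to be among the 10 leading genes. After the leading genes were seen, injury genes were no longer counted as a rival class, a cluster without a leading marker was left unnamed, and the minimum of 3 classes for setting a gene apart was added. Doublets were scored and kept.

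UMIs were summed per class and library. The 10 genes are all named, with listed isozymes and partners that have at least 10 UMIs. Genes and lists were chosen with earlier results of these data known. Because each condition has 1 library, no test was run, and exact 95% intervals were computed with scipy 1.17.1. For shares of cells with a UMI, cells were thinned to 2400 UMIs. Near-identical genes were found with BLAST 2.17.0 in GENCODE M21. TMM factors came from edgeR 4.0.16. The scripts were tested on simulated data. Results were recomputed under 13 alternative settings and under 2 more, each leaving out a cluster, that were chosen after seeing the data. A gene of the list of other glucose handling genes is not reported here.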

Additional observations from a re-analysis of the deposited data

How the results depend on the processing

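Of the counts of genes past 2-fold, those of PTEC-like (2), connecting tubule-like (1) and monocytic-like cells (4) between IRI24h-TDN and Sham stayed within 1.5 times under every alternative that gave a value, except that of PTEC-like cells with no limit on CPM, and no called difference reversed. TMM scaling moves every log2 ratio by -0.22 in PTEC-like, -0.12 in monocytic-like and 0.15 in ascending limb-like cells. The counts that moved are small, and the cause was not tested except where the construction gives it.

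With the top 6% of doublet scores removed, 1 gene was lower in ascending limb-like cells and 0 higher in PTEC-like cells of IRI24h-TD against IRI24h-TDN. Without correction between libraries 1 gene was higher in PEC-like cells, and with more variable genes 2 in ascending limb-like cells. TMM scaling gave 1 higher in podocyte-like and 2 in ascending limb-like cells. Scaling without mitochondrial and ribosomal protein genes gave 1 lower in ascending limb-like and 1 in connecting tubule-like cells. With each cell weighted alike 1 was higher in endothelial-like cells. Thinning gave 2 higher and 1 lower in ascending limb-like cells, 2 higher in endothelial-like cells, and 1 lower in PTEC-like cells of IRI24h-TD. A limit of 1.5-fold, which admits smaller ratios by construction, gave 2 higher in podocyte-like, 2 in PEC-like, 2 in ascending limb-like, 1 in intercalated-like, 1 in Rgs5/Myh11 and 3 in endothelial-like cells, and 1 lower in ascending limb-like and 2 in connecting tubule-like cells. With no limit on CPM, which tests more genes by construction, 1 was higher in PEC-like, 5 in PTEC-like, 2 in ascending limb-like, 1 in Rgs5/Myh11 and 1 in endothelial-like cells, and 2 higher and 1 lower in PTEC-like cells of IRI24h-TD. Leaving out cluster 8 leaves 28 PTEC-like cells in IRI24h-TD, too few for that comparison.

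No paired analysis was possible because each group has 1 library and no test was run. Summing a gene with copies named in the files was not run, since no copy of the 10 genes other than the overlapping Pitrm1 is in the counts. With 1 library per condition, shallow PTEC-like cells in IRI24h-TD and few distal cells in Sham limit every ratio here.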

Other observations

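Unnamed clusters gave values that belong in no comparison above. Cluster 29, led by Havcr1 and the cell cycle genes Top2a and Mki67, had 24 cells in IRI24h-TDN and 30 in IRI24h-TD. Ldha was at 811 and 776 CPM there, Pkm at 516 and 400 CPM, and Hk2 at 40.0 and 23.1 CPM, where PTEC-like cells of the same libraries had 14.98 and 6.68 CPM of Hk2. Cluster 19, led by the collagen gene Col3a1 and by Dcn, had Hk2 at 1.16 CPM in 162 cells of Sham, 137.5 CPM (69 UMIs) in 37 cells of IRI24h-TDN and 5.12 CPM in 67 cells of IRI24h-TD.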
